A study of Homo sapiens with 17 samples.

Results

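The genes described here are 33 members of the unfolded protein response and the integrated stress response, followed through all 6 groups of an acRIP-seq experiment in HEK293T, an established line of human embryonic kidney origin. They were taken by name as a list of endoplasmic reticulum (ER) chaperones, ER stress sensors and ATF4 pathway targets. No cut on measured values was used, but earlier results of these data were known when the list was chosen. All 33 were found among the 23368 genes of the count table. By role, 15 are ER chaperones and folding enzymes, 4 belong to ER-associated degradation, 8 are stress sensors or transcription factors and 6 are targets of the ATF4 pathway. acRIP-seq sequences the poly(A) RNA that an antibody against N4-acetylcytidine (ac4C), an acetylated base, precipitates. The WT groups are unmodified 293T cells measured as input RNA (3 libraries), as anti-ac4C pull-down (IP, 3 libraries) and as a control pull-down by immunoglobulin G (IgG, 2 libraries). The siTDP43 groups are 293T cells treated with siRNA against TARDBP, the gene of the RNA-binding protein TDP43, measured the same way with 3 libraries each. No control siRNA appears in the labels of WT, and the loss of TDP43 cannot be told apart from transfection or from the batch or stock of cells. Nothing in the labels says that replicates came from separate cultures, so p-values measure only the spread between libraries. All cells belong to 1 transformed line, and the labels name no stress agent for any group.

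The unfolded protein response is switched on when unfolded proteins build up in the ER. Its sensors are IRE1 (gene ERN1), which splices XBP1 mRNA into the form that encodes an active transcription factor, PERK (gene EIF2AK3), which phosphorylates the translation initiation factor eIF2, and ATF6, which is cleaved in the Golgi to release a transcription factor. Their products raise the chaperones, disulfide isomerases and degradation factors of the ER. Phosphorylation of eIF2 also follows amino acid shortage, viral double-stranded RNA or haem deficiency through other kinases, and this shared branch, the integrated stress response, favours translation of ATF4, which drives genes of amino acid supply, the death-linked factor DDIT3 (CHOP) and the feedback regulators TRIB3 and PPP1R15A (GADD34).

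Promoters of these genes are known for short response elements, which are shown here as a description of their sequence and do not assign a gene to a branch. The 250 bases before the start of transcription were searched on both strands in the RefSeq promoter table (GRCh38.p14), in which 32 of the 33 members (all but PDIA3) had an entry. Of these, 10 had more than 1 entry. A member was counted if any of its entries matched, while the shares of all promoters are shares of entries, so the units differ. The ER stress response element, ERSE, was searched as CCAAT and CCACG separated by 9 bases and was found in 7 members, against 0.074% of all 35116 promoters. In the lines below, each window holds the element in capitals with 12 bases on either side, 5′ to 3′ on the gene's own strand, so that an element on the opposite strand appears as its reverse complement.
CALR, chr19:12938372-12938414, plus strand: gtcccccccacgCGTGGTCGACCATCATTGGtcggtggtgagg
CANX, chr5:179698766-179698808, plus strand: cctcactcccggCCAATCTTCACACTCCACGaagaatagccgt
CRELD2, chr22:49918542-49918584, plus strand: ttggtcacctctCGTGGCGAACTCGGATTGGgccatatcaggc
HSP90B1, chr12:103930309-103930351, plus strand: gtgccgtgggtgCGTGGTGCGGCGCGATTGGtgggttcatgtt
HSP90B1, chr12:103930204-103930246, plus strand: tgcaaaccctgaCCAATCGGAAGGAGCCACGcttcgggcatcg
HSPA5, chr9:125241379-125241421, minus strand: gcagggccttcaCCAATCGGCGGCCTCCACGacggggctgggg
PDIA6, chr2:10812841-10812883, minus strand: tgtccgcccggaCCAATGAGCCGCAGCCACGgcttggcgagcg
XBP1, chr22:28800591-28800633, minus strand: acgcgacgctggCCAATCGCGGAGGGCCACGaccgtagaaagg

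The shorter element ERSE-II was searched as ATTGG and CCACG separated by 1 base. It was found in 3 members, of which HYOU1 held 2 copies, and in 0.051% of all promoters.
HERPUD1, chr16:56932013-56932047, plus strand: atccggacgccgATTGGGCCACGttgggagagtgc
HYOU1, chr11:119057262-119057296, minus strand: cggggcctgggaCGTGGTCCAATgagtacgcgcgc
HYOU1, chr11:119057368-119057402, minus strand: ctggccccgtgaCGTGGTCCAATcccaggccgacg
SDF2L1, chr22:21642102-21642136, plus strand: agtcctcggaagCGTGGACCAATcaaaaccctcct

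The upstream copy in HYOU1 shared bases with a match to TGACGTGG, the core of the unfolded protein response element, which occurred in HYOU1 alone among the members and in 0.612% of all promoters. The ATF4 site was searched as TGATGNAA, where N is any base. It was found in 4 members and in 3.144% of all promoters.
ASNS, chr7:97872457-97872488, minus strand: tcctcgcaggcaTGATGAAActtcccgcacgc
ATF3, chr1:212565204-212565235, plus strand: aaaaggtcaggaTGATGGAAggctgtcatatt
CHAC1, chr15:40953250-40953281, plus strand: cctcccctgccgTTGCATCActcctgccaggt
HERPUD1, chr16:56931954-56931985, plus strand: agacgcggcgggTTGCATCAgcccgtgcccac

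A match is a description of the letters and not evidence of binding. In all, 13 members held at least 1 of the 4 motifs.

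Total counts per library were 24542434 to 36583436 in the inputs, 8610070 to 21066215 in the IP and 3013989 to 9466855 in the IgG libraries, with the siTDP43 IgG libraries the shallowest. The median coefficient of variation of the members between libraries of a group rose from 2.45% in WT input to 13.8% in siTDP43 IgG, so the IgG values of siTDP43 carry the least precision. TARDBP, the target of the siRNA, had 149.7, 157 and 151 CPM (counts relative to library size, scaled by TMM) in the WT inputs and 98.6, 102 and 106 CPM in the siTDP43 inputs, which do not overlap. Its log2 change was -0.57 (SE 0.045, adjusted p = 6.55e-13), and an exact permutation test, two-sided, gave p = 0.1, which is as low as 3 libraries against 3 can go. NAT10, the ac4C acetyltransferase, stood at 50.7, 52.3 and 51.6 CPM in the WT inputs and 116, 108 and 111 CPM in the siTDP43 inputs, and rose by 1.12 on the log2 scale. Of 5 genes known from HEK293T cells, 4 had means above 10 CPM in both inputs and PAX2 was below 1 CPM, while 6 markers of blood, liver and skin reached at most 1.12 CPM there.

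Levels of the members are given first, as CPM per kilobase of exon with SD, which allows genes of different length to be compared; n is 3 libraries in each group except WT IgG, with 2. Among the abundant chaperones, HSPA5 (BiP), the main chaperone of the ER lumen and the gene most used as a sign of ER stress, had 807 ± 12.4 in input, 318 ± 9.34 in IP and 494 ± 4.73 in IgG of WT cells, and 159 ± 0.590, 80.9 ± 7.81 and 49.8 ± 4.02 in the same fractions of siTDP43 cells. HSP90B1 (GRP94), the HSP90 of the ER, had 323 ± 9.16 in input, 575 ± 24.2 in IP and 829 ± 26.5 in IgG of WT cells, and 183 ± 4.03, 164 ± 11.6 and 186 ± 11.0 in the same fractions of siTDP43 cells. Calreticulin, the soluble lectin chaperone encoded by CALR, had 223 ± 2.19 in input, 230.1 ± 5.17 in IP and 234 ± 6.53 in IgG of WT cells, and 138 ± 2.09, 191 ± 15.0 and 198 ± 6.34 in the same fractions of siTDP43 cells. Its membrane-bound counterpart CANX had 85.5 ± 2.10 in input, 62.5 ± 1.77 in IP and 155 ± 5.93 in IgG of WT cells, and 189 ± 4.52, 75.4 ± 1.03 and 62.4 ± 3.07 in the same fractions of siTDP43 cells. PDIA3, the disulfide isomerase that works with both lectins, had 175 ± 0.752 in input, 185 ± 4.82 in IP and 159 ± 3.22 in IgG of WT cells, and 179 ± 2.56, 35.5 ± 1.58 and 41.8 ± 4.29 in the same fractions of siTDP43 cells. Of the other disulfide isomerases, PDIA4 had 100.8 ± 4.05 in input, 48.8 ± 1.78 in IP and 68.7 ± 0.756 in IgG of WT cells, and 110.5 ± 6.32, 38.4 ± 3.73 and 38.1 ± 6.16 in the same fractions of siTDP43 cells. PDIA6, which also restrains IRE1 and PERK signalling, had 166 ± 2.80 in input, 34.6 ± 0.482 in IP and 42.7 ± 3.0 in IgG of WT cells, and 172 ± 2.76, 24.4 ± 1.30 and 21.4 ± 3.61 in the same fractions of siTDP43 cells. P4HB, the archetypal protein disulfide isomerase and a subunit of prolyl hydroxylase, had 138 ± 3.66 in input, 62.9 ± 3.52 in IP and 93.9 ± 6.99 in IgG of WT cells, and 193 ± 9.99, 103 ± 15.4 and 76.7 ± 4.79 in the same fractions of siTDP43 cells.

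The cochaperones and the smaller stress-induced factors of the ER followed. DNAJB9 (ERdj4), a J protein that keeps IRE1 inactive through BiP, had 16.3 ± 0.857 in input, 1.27 ± 0.138 in IP and 1.07 ± 0.323 in IgG of WT cells, and 9.16 ± 0.345, 2.78 ± 0.862 and 0.577 ± 0.472 in the same fractions of siTDP43 cells. DNAJB11 (ERdj3), which hands clients to BiP, had 65.4 ± 0.492 in input, 28.9 ± 0.637 in IP and 81.3 ± 3.87 in IgG of WT cells, and 45.4 ± 3.58, 35.6 ± 5.78 and 51.4 ± 3.11 in the same fractions of siTDP43 cells. DNAJC3 (p58IPK), another J protein of the lumen, had 5.36 ± 0.0802 in input, 4.74 ± 0.209 in IP and 11.7 ± 0.506 in IgG of WT cells, and 3.95 ± 0.257, 2.63 ± 0.568 and 0.836 ± 0.380 in the same fractions of siTDP43 cells. SDF2L1, a partner of DNAJB11, had 121 ± 8.37 in input, 474 ± 9.40 in IP and 510.5 ± 21.5 in IgG of WT cells, and 116 ± 6.92, 409 ± 20.5 and 673 ± 29.8 in the same fractions of siTDP43 cells. HYOU1 (GRP170), the nucleotide exchange factor of BiP, had 13.2 ± 0.203 in input, 49.1 ± 1.30 in IP and 31.5 ± 1.64 in IgG of WT cells, and 6.70 ± 0.178, 6.90 ± 0.758 and 18.3 ± 2.88 in the same fractions of siTDP43 cells. CRELD2, a secreted ER stress protein, had 48.4 ± 0.178 in input, 63.1 ± 3.63 in IP and 35.5 ± 6.94 in IgG of WT cells, and 29.5 ± 0.981, 39.7 ± 4.25 and 18.4 ± 2.65 in the same fractions of siTDP43 cells. MANF, a secreted factor that binds BiP, had 111 ± 3.82 in input, 370.3 ± 4.98 in IP and 400.3 ± 0.452 in IgG of WT cells, and 68.1 ± 2.74, 348 ± 4.62 and 578 ± 5.17 in the same fractions of siTDP43 cells. SDF2L1 and MANF shared an order of the fractions, lowest in input and higher in both pull-downs, in WT and in siTDP43. CALR, HYOU1 and CEBPB also had their lowest mean in input in both genotypes. For CALR in WT and HYOU1 in siTDP43, input and IP differed little.

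Among the degradation factors, HERPUD1, which assembles the HRD1 ligase complex, had 445 ± 3.92 in input, 95.2 ± 1.91 in IP and 238 ± 2.93 in IgG of WT cells, and 92.5 ± 0.0945, 36.6 ± 2.18 and 9.19 ± 3.03 in the same fractions of siTDP43 cells. SEL1L, the adaptor of that ligase, had 2.29 ± 0.188 in input, 1.60 ± 0.169 in IP and 1.19 ± 0.296 in IgG of WT cells, and 4.28 ± 0.350, 0.773 ± 0.221 and 0.0571 ± 0.0989 in the same fractions of siTDP43 cells. SYVN1, the HRD1 ligase itself, had 7.70 ± 0.0181 in input, 11.4 ± 0.778 in IP and 2.14 ± 0.929 in IgG of WT cells, and 1.76 ± 0.320, 1.90 ± 0.463 and 9.19 ± 1.41 in the same fractions of siTDP43 cells. EDEM1, which trims mannose from glycoproteins bound for degradation, had 1.41 ± 0.183 in input, 1.14 ± 0.147 in IP and 3.51 ± 0.904 in IgG of WT cells, and 1.66 ± 0.187, 1.38 ± 0.227 and 5.40 ± 1.33 in the same fractions of siTDP43 cells. HERPUD1 stood far above the other 3 in both inputs.

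Of the sensors, ERN1 (IRE1) was the lowest member in both inputs, with 0.472 ± 0.0323 in input, 0.0475 ± 0.0823 in IP and 0 in IgG of WT cells, and 0.438 ± 0.0289, 0 and 0 in the same fractions of siTDP43 cells. EIF2AK3 (PERK) had 1.20 ± 0.191 in input, 0.549 ± 0.0638 in IP and 2.62 ± 0.513 in IgG of WT cells, and 0.506 ± 0.0818, 0.975 ± 0.251 and 0 in the same fractions of siTDP43 cells. ATF6 had 5.95 ± 0.0828 in input, 4.99 ± 0.309 in IP and 5.61 ± 1.34 in IgG of WT cells, and 6.64 ± 0.324, 4.16 ± 0.00312 and 1.82 ± 0.450 in the same fractions of siTDP43 cells. Apart from CEBPB, the transcription factors were more abundant. XBP1 had 184 ± 1.70 in input, 91.3 ± 2.22 in IP and 145 ± 10.6 in IgG of WT cells, and 18.6 ± 0.519, 91.5 ± 0.398 and 50.03 ± 11.1 in the same fractions of siTDP43 cells. ATF4 had 513 ± 4.38 in input, 366 ± 7.10 in IP and 572 ± 22.8 in IgG of WT cells, and 360.3 ± 4.56, 616 ± 51.4 and 516 ± 19.4 in the same fractions of siTDP43 cells. ATF3, a repressor induced by ATF4 and many other stresses, had 337 ± 4.18 in input, 118 ± 1.75 in IP and 278 ± 4.38 in IgG of WT cells, and 23.2 ± 0.424, 13.0 ± 1.87 and 20.3 ± 2.09 in the same fractions of siTDP43 cells. DDIT3 had 189.8 ± 9.52 in input, 45.1 ± 3.03 in IP and 129.8 ± 7.12 in IgG of WT cells, and 38.2 ± 0.932, 23.1 ± 2.73 and 36.6 ± 8.83 in the same fractions of siTDP43 cells. CEBPB, a bZIP partner of ATF4 and DDIT3 encoded by an intronless gene, had 2.15 ± 0.163 in input, 38.9 ± 2.87 in IP and 30.5 ± 0.730 in IgG of WT cells, and 0.638 ± 0.122, 10.4 ± 1.32 and 8.90 ± 1.17 in the same fractions of siTDP43 cells.

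Of the ATF4 pathway targets, DDIT4 (REDD1), an inhibitor of mTORC1, had 613 ± 12.6 in input, 188 ± 12.1 in IP and 184 ± 18.5 in IgG of WT cells, and 239 ± 12.3, 125 ± 4.65 and 72.3 ± 8.04 in the same fractions of siTDP43 cells. TRIB3, a pseudokinase that dampens ATF4 and AKT, had 64.7 ± 2.03 in input, 22.9 ± 2.67 in IP and 21.7 ± 0.183 in IgG of WT cells, and 7.18 ± 0.799, 18.3 ± 0.655 and 4.02 ± 2.37 in the same fractions of siTDP43 cells. PPP1R15A, which brings phosphatase to eIF2, had 105 ± 2.66 in input, 39.6 ± 2.84 in IP and 54.8 ± 1.82 in IgG of WT cells, and 18.2 ± 1.17, 9.77 ± 1.24 and 0 in the same fractions of siTDP43 cells. CHAC1, which breaks down glutathione, had 112 ± 3.45 in input, 36.1 ± 1.93 in IP and 47.3 ± 0.510 in IgG of WT cells, and 23.1 ± 1.41, 19.7 ± 2.56 and 9.29 ± 0.151 in the same fractions of siTDP43 cells. ASNS, the asparagine synthetase, had 523 ± 11.7 in input, 92.8 ± 3.44 in IP and 189.5 ± 8.58 in IgG of WT cells, and 146 ± 3.55, 69.2 ± 0.494 and 131 ± 1.69 in the same fractions of siTDP43 cells. SESN2, a leucine sensor upstream of mTORC1, had 34.3 ± 1.75 in input, 22.1 ± 1.10 in IP and 49.9 ± 0.232 in IgG of WT cells, and 33.7 ± 3.85, 26.1 ± 0.195 and 22.8 ± 5.72 in the same fractions of siTDP43 cells. In WT input the order of the levels per kilobase began with HSPA5, DDIT4, ASNS and ATF4, the last 2 of which were within 1 SD of each other, and in siTDP43 input it began with ATF4 and DDIT4, followed by P4HB, CANX, HSP90B1 and PDIA3, each within 2 SD of the next.

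The comparison of the inputs asked how the abundance of these mRNAs differed between siTDP43 and WT cells. Most members were lower in siTDP43: 22 of 33 fell, 5 rose and 6 did not pass the test (edgeR quasi-likelihood test, adjusted p under 0.05), with a median log2 change of -0.71 against -0.049 over all genes tested. In bulk RNA, fewer cells that express a gene and less of its RNA in each cell cannot be told apart. Over all 14036 genes tested, 40.6% were lower and 38.6% higher, so the share of members lower, 66.7%, stood above that of all genes. The libraries of the 27 members called did not overlap between the groups, and the same was true of 76.9% of all genes tested, so nothing is read from that count. With a fold above 2 also required, a threshold added after the values were seen, 13 members were lower and 1, CANX, higher, against 21.6% and 15.5% of all genes.

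The 3 largest falls were those of ATF3, XBP1 and TRIB3, which lie in hg19 at chr1:212738676-212794119 (plus strand), chr22:29190548-29196560 (minus strand) and chr20:361308-378203 (plus strand). ATF3 had 848, 869 and 854 CPM in the WT inputs and 60.04, 57.9 and 59.1 CPM in the siTDP43 inputs. It was 14.5-fold lower, a log2 change of -3.85 (SE 0.042, adjusted p = 1.37e-34). XBP1, one of the members with an ERSE in its promoter, had 334, 339 and 333 CPM in WT and 34.3, 34.4 and 32.7 CPM in siTDP43. It was 9.88-fold lower (log2 -3.30, SE 0.047, adjusted p = 8.79e-32), and the counts per gene do not separate its spliced from its unspliced form. TRIB3 had 163, 159.5 and 153 CPM in WT and 19.8, 16.0 and 17.1 CPM in siTDP43. It was 8.94-fold lower (log2 -3.16, SE 0.063, adjusted p = 5.99e-28). The siTDP43 libraries of each of these genes lay within a narrow band far under the WT libraries.

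**Figure D1:**
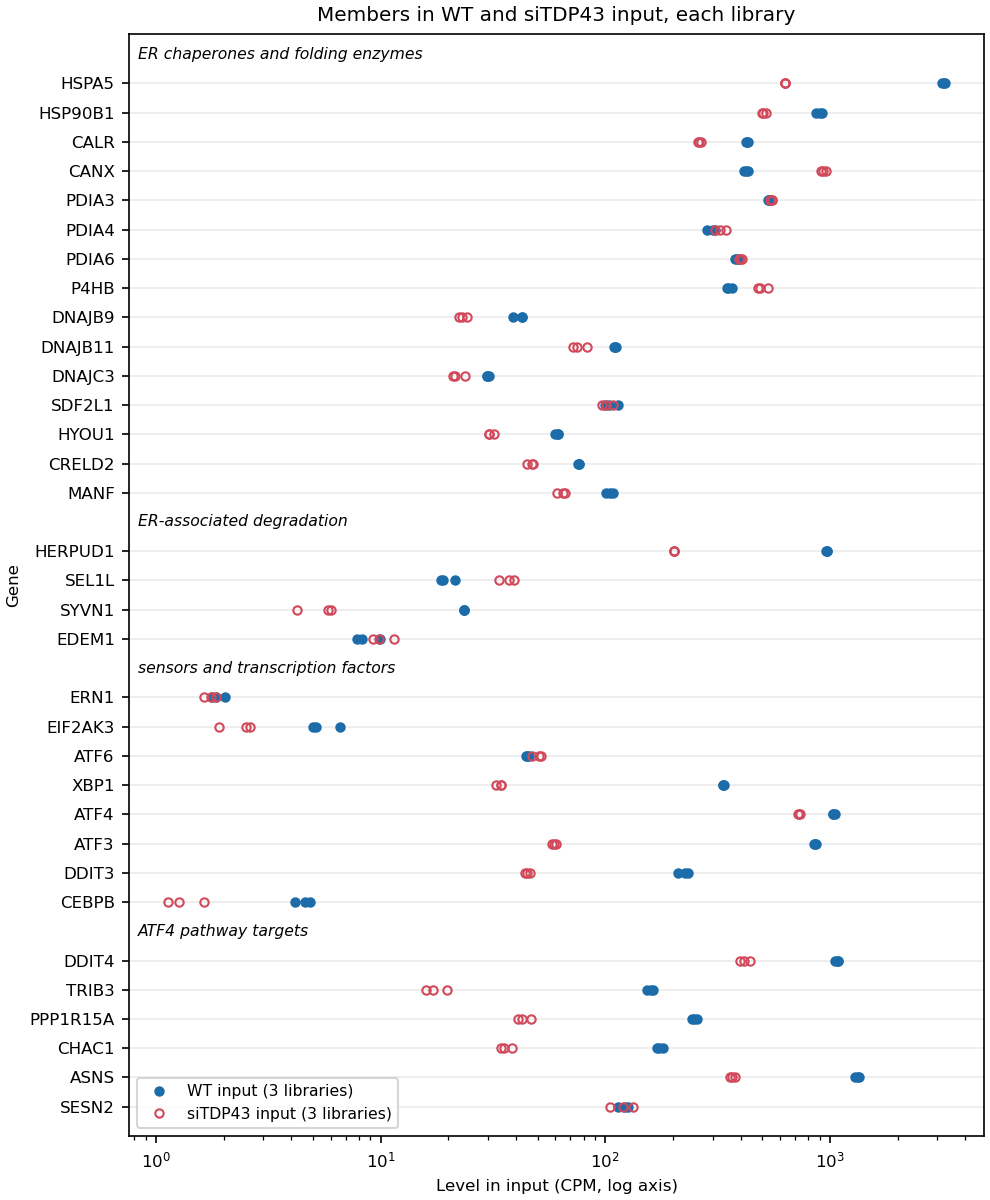
Level of each of the 33 members in the input (CPM, log axis); filled points are the 3 WT libraries and open points the 3 siTDP43 libraries, grouped by role. For the 22 members that were lower, the open points lie left of the filled ones, and for CANX, SEL1L, P4HB, PDIA4 and ATF6 they lie right of them.

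Of the 4 roles, the ATF4 pathway targets had the lowest median log2 change, -2.05, and 5 of the 6 were lower, against 40.6% of all genes. PPP1R15A had 256, 243 and 249 CPM in WT and 46.5, 42.7 and 41.1 CPM in siTDP43, a log2 change of -2.51 (SE 0.05). CHAC1 changed by -2.27, ASNS by -1.84 and DDIT4 by -1.35. SESN2 did not pass the test, with 126, 123 and 114 CPM in WT and 132, 119.6 and 105 CPM in siTDP43, which overlap, but it passed as higher with the GC trend removed (0.48, adjusted p = 6.80e-11). ATF4 itself, whose protein is set mainly by translation, had a smaller change of -0.51.

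Of the 8 sensors and transcription factors, 6 were lower and 1, ATF6, was higher (40.6% and 38.6% of all genes). Beside ATF3 and XBP1, DDIT3 changed by -2.31 and had 211, 234 and 226 CPM in WT against 44.8, 44.0 and 46.2 CPM in siTDP43. CEBPB changed by -1.75 from levels of a few CPM, and by -0.48 (adjusted p = 0.0618) when a trend with GC content was removed from each library. EIF2AK3 changed by -1.24 (SE 0.20), with 6.61, 5.14 and 5.02 CPM in WT and 2.52, 2.61 and 1.91 CPM in siTDP43. ERN1 had 1.79, 2.04 and 1.85 CPM and 1.77, 1.86 and 1.63 CPM and did not pass the test. ATF6 was higher by 0.16 on the log2 scale (adjusted p = 0.0164), a call that was lost without WT input replicate 3 (0.15, adjusted p = 0.0572) and without siTDP43 input replicate 2 (0.14, adjusted p = 0.0762). With the GC trend removed it passed as lower (-0.12, adjusted p = 0.0385).

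The other kinases that phosphorylate eIF2 moved in different directions. EIF2AK1, the haem-regulated kinase, changed by -1.38 (adjusted p = 1.74e-19). EIF2AK2 (PKR), which senses double-stranded RNA, rose by 0.77 (adjusted p = 1.50e-09). EIF2AK4 (GCN2), which senses uncharged tRNA, had a log2 change of 0.092 (adjusted p = 0.341) and did not pass.

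Among the 15 chaperones and folding enzymes, 9 were lower, 3 were higher and 3 did not pass, with a median log2 change of -0.52. Of all genes, 40.6% were lower and 38.6% higher. HSPA5 had 3149.7, 3218 and 3246 CPM in WT and 633, 632 and 628 CPM in siTDP43. At 5.06-fold lower (log2 -2.34, SE 0.035, adjusted p = 2.67e-31), it stood apart from the other 8 that fell, whose log2 changes lay between -0.97 for HYOU1 and -0.43 for DNAJC3. CANX, by contrast, had 413, 422 and 434 CPM in WT and 911, 933 and 956 CPM in siTDP43. It rose by 1.15 (SE 0.037, adjusted p = 9.50e-23), while CALR, the other lectin chaperone, changed by -0.69. P4HB had 366, 347 and 352 CPM in WT and 528, 489 and 479.6 CPM in siTDP43, a rise of 0.50. PDIA4 was higher by 0.14 (adjusted p = 0.00478), and without WT input replicate 1 by 0.10 (adjusted p = 0.0546). PDIA3, PDIA6 and SDF2L1 had log2 changes of 0.043, 0.055 and -0.053 and did not pass. All 3 passed with the opposite sign once the GC trend was removed, at -0.17 (adjusted p = 7.10e-06), -0.10 (adjusted p = 0.00472) and 1.04 (adjusted p = 1.57e-19). SDF2L1 passed as lower with scaling by total count (-0.14, adjusted p = 0.0165) and with limma on log2(FPKM + 1) (-0.14, adjusted p = 0.0481). Exons of PDIA6 (1033 bases), SYVN1 (91), DDIT3 (68) and PDIA3 (7) overlap those of a gene on the opposite strand. Those of HSP90B1 overlap a gene on the same strand by 131 bases. No source states whether counting used the strand or how reads in an overlap were assigned, so reads of the neighbours may be included or shared reads left out.

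The degradation factors split. HERPUD1, with an ERSE-II and an ATF4 site in its promoter, had 971, 958 and 974 CPM in WT and 202, 201 and 201 CPM in siTDP43. It was 4.79-fold lower (log2 -2.26). SYVN1 changed by -2.12, with 23.5, 23.5 and 23.4 CPM in WT and 6.02, 4.24 and 5.81 CPM in siTDP43. SEL1L, the partner of SYVN1, had 18.5, 18.9 and 21.5 CPM in WT and 37.2, 33.5 and 39.4 CPM in siTDP43 and rose by 0.91 (SE 0.08). EDEM1 had a log2 change of 0.24 (adjusted p = 0.0942), which passed only without WT input replicate 2 (0.35, adjusted p = 0.0343).

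Set beside the promoter motifs, 7 of the 10 members with an ERSE or ERSE-II were lower in siTDP43 input, 1 was higher (CANX) and 2 did not pass (PDIA6 and SDF2L1). All 4 members with the ATF4 site, ASNS, ATF3, CHAC1 and HERPUD1, were lower. With 66.7% of all 33 members lower in the same comparison, neither count is read as particular to the motifs.

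Other genes of the same pathways, none of them a member, were counted in the same fit, in which 40.6% of all genes were lower and 38.6% higher. Of 18 other ATF4 targets of amino acid supply, 13 were lower and 3 higher, with a median log2 change of -0.70. Of 15 other ER folding factors tested, 10 were lower and 4 higher (median -0.92). The balance was opposite in 15 other ER-associated degradation factors tested, of which 10 were higher and 4 lower (median 0.47). In the group of 14 eIF2 kinases, subunits, phosphatases and exchange factors, 8 were higher and 4 lower (median 0.46). Of 12 other transcription factors of the response and their proteases, 6 were higher and 5 lower (median 0.25). At 50% and 41.7%, the last list lay near the shares of all genes, and nothing is read from its counts.

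**Figure D2:**
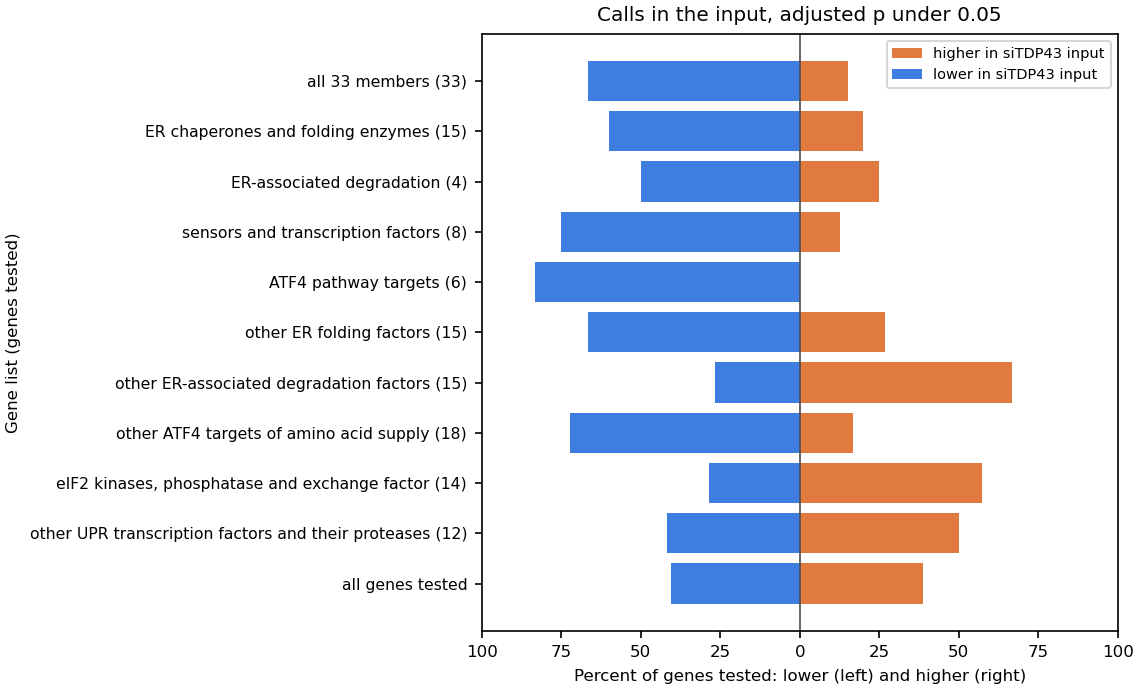
Percent of the genes tested in each list that were lower (bars to the left) or higher (bars to the right) in siTDP43 input than in WT input at an adjusted p under 0.05, with all genes tested at the bottom; the number of genes tested is in brackets. All 33 members and the other ATF4 targets lie mostly to the left, with 22 of 33 and 13 of 18 genes lower, and the other degradation factors mostly to the right, with 10 of 15 higher.

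The WT pull-down asked which of these mRNAs were enriched by the anti-ac4C antibody over input and over IgG, where a fold above 2 and an adjusted p under 0.05 made a call. The comparisons over input and over IgG share the IP libraries. No member met both conditions, which define ac4C(+), whereas 15.6% of the 14751 genes tested did. The count was 0 at an unadjusted p under 0.05 too, in edgeR, and 0 with DESeq2 at the adjusted threshold. Over input 4 members were higher and 17 lower (30.2% and 27.3% of all genes), with a median log2 change of -1.005 against 0.013 over all genes. Over IgG 1 member was higher and 10 lower (35.2% and 17.8% of all genes), with a median of -0.49 against 0.29. Removing the GC trend gave 1 higher and 18 lower, and the median of all genes moved to -0.19.

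The 4 members above input were CEBPB, SDF2L1, HYOU1 and MANF. CEBPB had 4.17, 4.604 and 4.84 CPM in input, 76.2, 81.4 and 88.3 CPM in IP and 65.5 and 63.3 CPM in IgG. Its log2 value was 4.18 over input (SE 0.093) and 0.33 over IgG, so both pull-downs held it far above input, and over IgG it was -1.11 with the GC trend removed. SDF2L1 had 114, 104 and 100.2 CPM in input, 424, 410.3 and 409 CPM in IP and 433 and 459 CPM in IgG. Its log2 value was 1.97 over input, and 0.20 with the GC trend removed, under 2-fold. HYOU1 had 61.6, 61.5 and 59.9 CPM in input, 230.5, 229.6 and 219.7 CPM in IP and 151 and 139.9 CPM in IgG, and MANF had 105, 108 and 100.6, 352, 349 and 343 and 376 and 376 CPM in the same order. In the control pull-down 8 members were above input and 8 below (24.4% and 36.6% of all genes), and all 4 of these genes were among the 8 that were higher in IgG. The median log2 value of IgG over input was -0.32 for the members and -0.39 over all genes.

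SYVN1 was the member called above IgG in WT. It had 23.5, 23.5 and 23.4 CPM in input, 37.4, 32.97 and 33.8 CPM in IP and 8.53 and 4.53 CPM in IgG, a log2 value of 2.38 over IgG (SE 0.17, adjusted p = 9.84e-12) and 0.57 over input. CRELD2, at 0.81 over IgG, was the next above it and passed 2-fold without WT IgG replicate 1 (1.02), so that 2 members in place of 1 were then above IgG, while with the GC trend removed it was -0.20. The largest falls under IgG were those of EIF2AK3, EDEM1 and DDIT3. EIF2AK3 had 2.89, 2.37 and 2.39 CPM in IP and 13.9 and 10.5 CPM in IgG (log2 -2.27, SE 0.23). EDEM1 had 7.27, 6.04 and 7.80 CPM in IP and 17.6 and 25.5 CPM in IgG (log2 -1.63, SE 0.18). DDIT3 had 51.9, 50.3 and 57.2 CPM in IP and 147 and 159 CPM in IgG (log2 -1.54, SE 0.071). In each of them all IP libraries lay below both IgG libraries.

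In WT, 7 of 33 members were below input in both pull-downs, against 17.5% of all genes, namely PDIA6, DNAJB9, ERN1, DDIT4, TRIB3, CHAC1 and ASNS. Of the members below input in WT IP, DNAJB9 had the largest fall. DNAJB9 had 42.6, 38.9 and 42.8 CPM in input, 2.89, 3.18 and 3.59 CPM in IP and 2.13 and 3.29 CPM in IgG. Its log2 value was -3.68 over input (SE 0.13), and IgG stood -3.91 from input, so it was depleted in both pull-downs. ASNS had 1286, 1340.5 and 1334 CPM in input, 225, 241 and 237 CPM in IP and 463 and 494 CPM in IgG, a log2 value of -2.49 over input. Over IgG it was -1.05, and -0.999 without WT IgG replicate 2, just under 2-fold. PDIA6 had 379, 392 and 387 CPM in input, 81.9, 80.1 and 80.0 CPM in IP and 94.4 and 104 CPM in IgG, and its log2 value was -2.25 over input and -1.93 in IgG. ERN1 was at 0 in 2 of 3 IP libraries and both IgG libraries, against 1.79, 2.04 and 1.85 CPM in input. The gene passed the low-count filter through the inputs alone. Nothing is therefore read from its calls below input, which the counts of members include. The DESeq2 Wald test did not call its fall in IP (log2 -3.30, adjusted p = 0.168). In IgG ERN1 was at least 6.31-fold below input, computed against 3 counts per library, a log2 bound of -1.66 when each count is divided by 2. Every one of these values lay below every input library. XBP1, at -1.005 over input, was only just past 2-fold, and its value without WT input replicate 2, WT IP replicate 1 or WT IP replicate 2 was -0.997, -0.987 or -0.998. The fall of EIF2AK3 under input, -1.12, was -0.992 without WT input replicate 1, and its rise in IgG over input, 1.16, was 0.94 without WT IgG replicate 1.

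In siTDP43 the same comparisons used 12746 tested genes. EIF2AK3 and TRIB3 were called ac4C(+), 2 of 33 members against 10.3% of all genes. Over input 6 members were higher and 8 lower (26.8% and 25.4% of all genes), with a median log2 change of -0.42 against -0.092. That split became 5 higher and 14 lower with scaling by total count, and 4 and 10 with the GC trend removed. Over IgG 10 were higher and 3 lower (34.0% and 15.0% of all genes), with a median of 0.15 against 0.33, and 6 higher and 11 lower with the GC trend removed. The IgG fraction held 7 members above input and 16 below (24.7% and 41.0% of all genes), or 12 and 9 with the GC trend removed. The median there was -0.60 against -0.58 over all genes, and -0.45 with the members at 0 set to their bounds. Both pull-downs were below input for 8 of 33 members, against 18.5% of all genes, namely CANX, PDIA3, PDIA4, PDIA6, DNAJB9, HERPUD1, SEL1L and ERN1. ERN1 had no count in either pull-down. Its 1.75 CPM in input was under 2-fold above the level of 3 counts in IgG, 1.13 CPM, so no fold can be given there. Its place among these 8 and among the 16 below input in IgG rests on those empty libraries. Since the gene passed the low-count filter through the inputs alone, nothing is read from its calls below input.

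TRIB3 had 19.8, 16.0 and 17.1 CPM in input, 46.4, 44.8 and 43.2 CPM in IP and 5.14, 8.09 and 16.4 CPM in IgG. Its log2 value was 1.502 over input (adjusted p = 6.56e-08, SE 0.17) and, against IgG, 2.10 (SE 0.24, adjusted p = 1.11e-07), with the 3 IP libraries above all others. With the GC trend removed it was 0.91 over input, under 2-fold. EIF2AK3 had 2.52, 2.61 and 1.91 CPM in input and 5.50, 4.86 and 3.24 CPM in IP, and 0 in every IgG library. Its log2 value was 1.11 over input (adjusted p = 0.00762, SE 0.36), while against IgG it was at least 4.02-fold higher, computed against 3 counts per library. Without siTDP43 input replicate 3 or siTDP43 IP replicate 1 the value over input was 0.97 or 0.96, and the gene was then no longer called ac4C(+). The same held with scaling by total count (0.77 over input) and with all 17 libraries in 1 fit (0.97).

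The largest rises over input were those of CEBPB, MANF and XBP1. CEBPB had 1.14, 1.27 and 1.63 CPM in input, 21.4, 24.8 and 19.3 CPM in IP and 21.3, 18.6 and 16.4 CPM in IgG (log2 4.17 over input). MANF had 64.6, 61.2 and 66.2 CPM in input, 324, 325 and 332 CPM in IP and 548, 541 and 539 CPM in IgG (log2 2.51 over input). XBP1 had 34.3, 34.4 and 32.7 CPM in input, 166, 167 and 166 CPM in IP and 94.0, 69.6 and 109.6 CPM in IgG (log2 2.45 over input). All 3, and SDF2L1 with 617, 567 and 581 CPM in IgG, were also above input in IgG, by log2 values of 4.02 for CEBPB, 3.31 for MANF, 2.76 for SDF2L1 and 1.66 for XBP1. The falls under input included PDIA6, with 397, 395 and 407 CPM in input, 60.2, 54.9 and 55.2 CPM in IP and a log2 value of -2.66. SEL1L had 37.2, 33.5 and 39.4 CPM in input and 5.35, 8.81 and 5.73 CPM in IP (log2 -2.32). ERN1, at 0 in all IP libraries, was at least 5.84-fold below input, a log2 bound of -1.56 when each count is divided by 2.

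Over IgG, PPP1R15A had the largest difference, against a control without a count. It had 26.1, 23.6 and 20.2 CPM in IP, 46.5, 42.7 and 41.1 CPM in input and 0 in every IgG library. It was at least 20.7-fold above IgG, while IgG was at least 38.5-fold below input, each computed against 3 counts per library. EIF2AK3, at lower counts, was also without a count in IgG, which was at least 2.08-fold below input, but its IP lay above its input. These bounds rest on few counts. Of low counts, 81.3% to 95.9% were even across the libraries, and mates of a pair counted one by one would give such a share. Dividing each count by 2 lowers the log2 bound over IgG to 3.37 for PPP1R15A and 1.01 for EIF2AK3. In IgG against input it takes the log2 bound to -4.27 for PPP1R15A and -0.06 for EIF2AK3. SEL1L had 1.47, 0 and 0 CPM in IgG, which is 4 counts in 1 library and none in the others, and a log2 value of 3.63 over IgG (SE 0.62). HERPUD1 had 74.6, 84.0 and 80.5 CPM in IP and 13.9, 19.0 and 27.0 CPM in IgG (log2 1.91, SE 0.15), yet its IP lay below its input (log2 -1.18). Beside TRIB3, the other members above IgG were DNAJB9 (2.13), DNAJC3 (1.57), ATF6 (1.12), CRELD2 (1.04) and CHAC1 (1.02). The last 3 were under 2-fold without siTDP43 IP replicate 1 (CRELD2 0.986, CHAC1 0.94) or without siTDP43 IgG replicate 1 (CRELD2 0.92, ATF6 0.95), and with the GC trend removed DNAJC3 stood at 0.61. The members under IgG were SYVN1, EDEM1 and HYOU1. SYVN1 had 6.98, 6.18 and 4.23 CPM in IP and 28.6, 23.5 and 32.0 CPM in IgG (log2 -2.33, SE 0.26). EDEM1 had 9.88, 7.09 and 8.47 CPM in IP and 24.6, 40.9 and 34.2 CPM in IgG (log2 -2.03). HYOU1 had 35.5, 28.6 and 31.4 CPM in IP and 92.5, 91.4 and 69.0 CPM in IgG (log2 -1.47), with the IgG libraries of all 3 genes above every IP library.

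**Figure D3:**
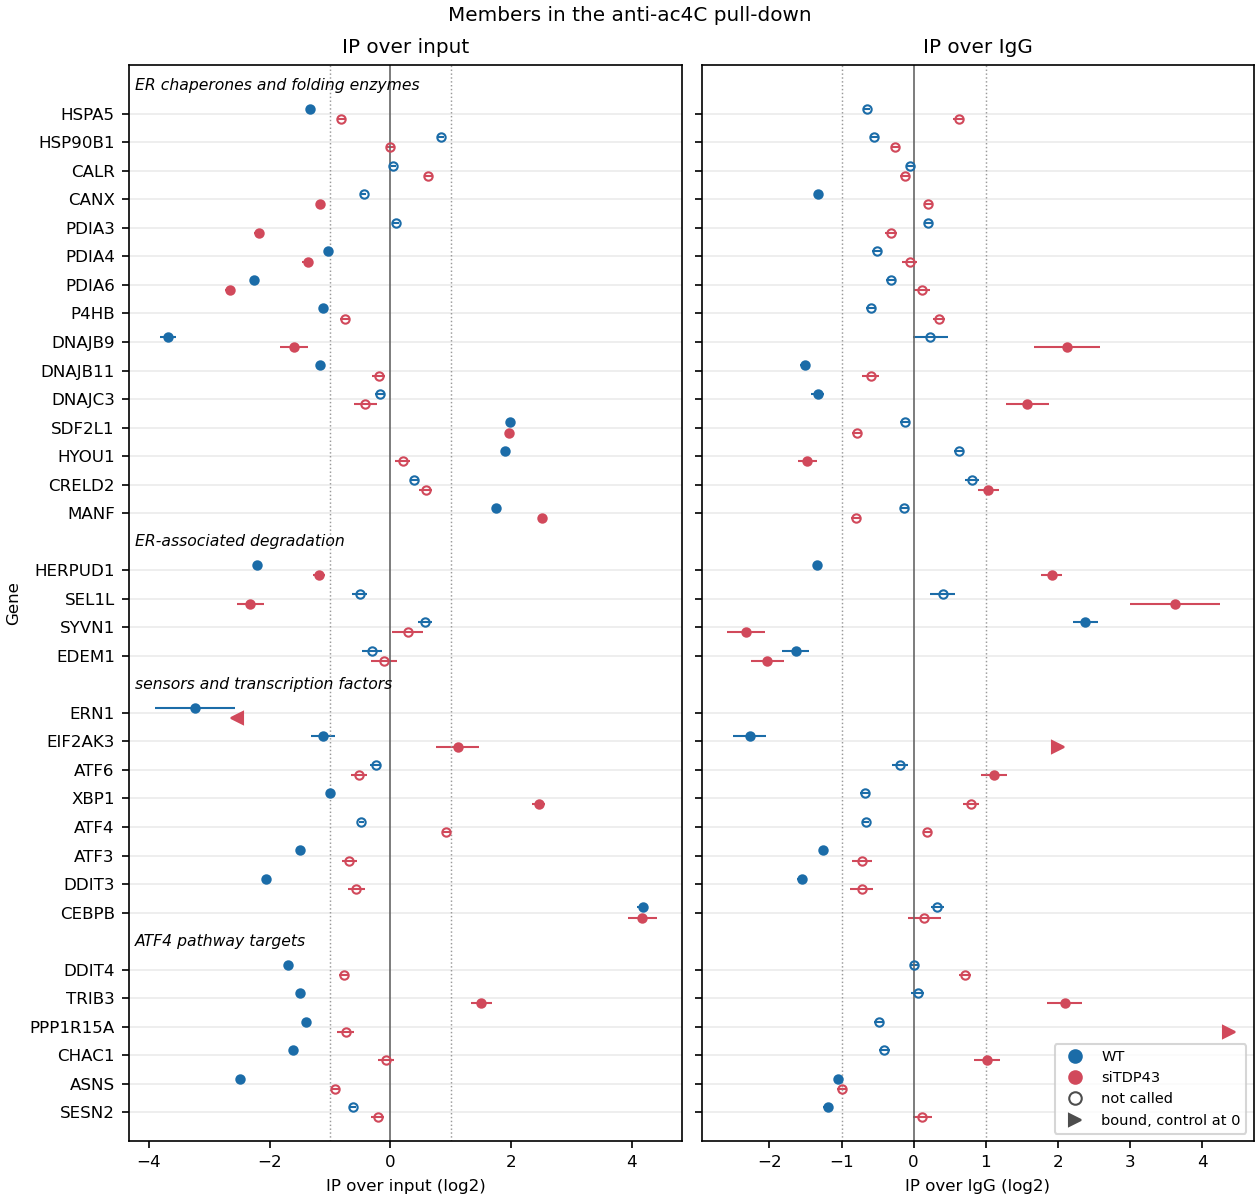
Log2 of IP over input (left) and of IP over IgG (right) for each member in WT (blue) and siTDP43 (red), with the standard error of the fit as bars; filled points passed an adjusted p under 0.05 and 2-fold (dotted lines), triangles are bounds against 3 counts where a group was at 0, and ERN1 has no value over IgG. Over IgG, 10 members in WT lie past the left dotted line and 10 in siTDP43 past the right one.

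Enrichment in siTDP43 was set against that in WT by an interaction term, fitted to the 17 libraries together over 15165 genes. Relative to input, 16 members had a higher IP value in siTDP43 than in WT and 8 a lower one (31.5% and 36.3% of all genes), with a median of 0.26 against -0.19 over all genes. With scaling by total count the split was 13 higher and 11 lower, while the median of all genes moved to -0.48. Relative to IgG, 22 were higher and 5 lower (34.9% and 25.9% of all genes), with a median of 0.88 against 0.24. The interactions share their libraries with the comparisons within each genotype, and the change over input also holds the difference between the inputs, in which most of these genes were lower in siTDP43.

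XBP1 had the largest change over input. Its IP libraries held 162, 166 and 170.5 CPM in WT and 166, 167 and 166 CPM in siTDP43, ranges that overlap, while its inputs differed 9.88-fold. The log2 change of IP over input was 3.31 (adjusted p = 7.22e-25, SE 0.11), and that against IgG 1.53. TRIB3 had 63.3, 50.6 and 54.5 CPM in WT IP and 46.4, 44.8 and 43.2 CPM in siTDP43 IP, and changed by 2.85 over input (SE 0.16) and 2.09 over IgG (SE 0.24). EIF2AK3 changed by 2.10 over input (SE 0.38). By role, 5 of the 6 ATF4 pathway targets and 5 of the 8 sensors and transcription factors were higher over input, against 31.5% of all genes. Of the 15 chaperones and folding enzymes, 5 were higher and 6 lower, near the shares of all genes (31.5% and 36.3%). The 5 genes of each of the former roles were also lower in siTDP43 input, so this contrast cannot be told apart from the difference between the inputs.

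In 6 members the IP was called on opposite sides of the same control in WT and siTDP43 with the interaction past its threshold, against 14.7% of the 12556 genes tested in all 3 fits, and nothing particular to the members is read from it.

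The largest falls over input were those of PDIA3, SEL1L and HYOU1. PDIA3 had 533, 532 and 536 CPM in WT input and 577, 549.7 and 573 CPM in WT IP. In siTDP43 it had 539, 549 and 554 CPM in input, 114, 107 and 104 CPM in IP and 142, 116 and 126 CPM in IgG. The inputs were close to each other and both siTDP43 pull-downs were low. The change was -2.42 over input (adjusted p = 1.79e-24, SE 0.085) but -0.46 against IgG. SEL1L changed by -1.96 over input and, against the near-empty siTDP43 IgG, by 3.28 over IgG (SE 0.67), a change that limma on log2(FPKM + 1) gave as 0.36 and did not call. HYOU1 changed by -1.84 over input and -2.04 over IgG (SE 0.14), lower against both controls. It had 230.5, 229.6 and 219.7 CPM in WT IP and 35.5, 28.6 and 31.4 CPM in siTDP43 IP.

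Over IgG the largest change that was not a bound was the fall of SYVN1. Its IP libraries held 37.4, 32.97 and 33.8 CPM in WT and 6.98, 6.18 and 4.23 CPM in siTDP43, and its IgG libraries 8.53 and 4.53 CPM in WT and 28.6, 23.5 and 32.0 CPM in siTDP43. In siTDP43 its IP level was lower and its IgG level higher than in WT, and the change was -4.65 (SE 0.31, adjusted p = 7.87e-16). HERPUD1 rose by 3.31 over IgG (SE 0.14, adjusted p = 1.96e-21), with 202, 210.2 and 209 CPM in WT IP against 513 and 522 CPM in WT IgG. DNAJC3 rose by 2.97 (SE 0.29), with 25.9, 27.8 and 25.7 CPM in WT IP, 67.6 and 63.6 CPM in WT IgG, 17.4, 15.6 and 11.2 CPM in siTDP43 IP and 3.67, 3.24 and 7.12 CPM in siTDP43 IgG. As bounds against 3 counts, the log2 change over IgG was at least 4.84 for PPP1R15A and 4.26 for EIF2AK3. Neither bound was recomputed with each count divided by 2. That division moved the log2 bounds of siTDP43 IP over IgG from 4.37 to 3.37 for PPP1R15A and from 2.01 to 1.01 for EIF2AK3. Among the members that were lower, MANF changed by -0.62, with IgG levels of 376 and 376 CPM in WT and 548, 541 and 539 CPM in siTDP43. The IgG libraries of siTDP43 were also shallower than those of WT, and the part of depth in the changes over IgG was not tested.

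**Figure D4:**
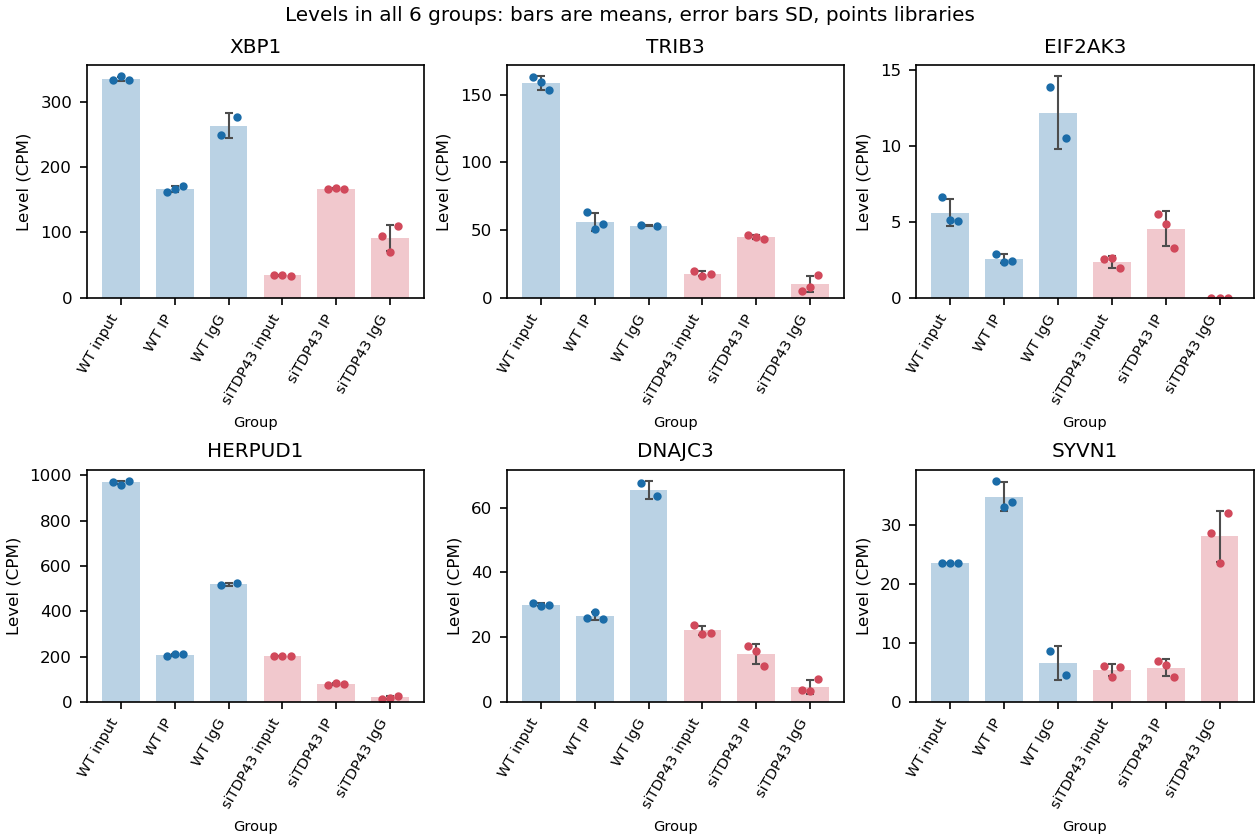
Level (CPM) in all 6 groups of the 6 members whose IP differed from a control in opposite directions in WT and siTDP43; bars are means from 0, error bars are SD and points are libraries (3 in each group, 2 in WT IgG). XBP1, TRIB3 and EIF2AK3 lie below input in WT IP and above it in siTDP43 IP, HERPUD1 and DNAJC3 lie below IgG in WT and above it in siTDP43, and SYVN1 does the reverse.

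Sequence features that the choice of genes did not use were set beside these values. The GC content of the exons (hg19) was 51.4% at the median of the members, from 38.5% in DNAJB9 to 67.4% in CEBPB, against 49.5% over all genes. Across the 33 members, which share libraries and are not independent, Spearman's rho between GC content and the log2 value of IP over input was 0.11 in WT and 0.42 in siTDP43. Between exon length and the change of IP over input rho was -0.50, the largest of the values computed. That change also holds the difference between the inputs, for which rho with length was 0.42. With length, rho was 0.082 for IP over input in WT, -0.39 in siTDP43 and 0.16 for the change over IgG. The sequence TCCCAGCT, the DNA form of a motif searched here because the study names it for ac4C, was counted in the exons. It was present in 2 members, HSPA5 with 1 copy and ATF6 with 3, against 16.9% of all 23346 genes with exon sequence. Neither gene was above input or IgG in WT IP.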

How the data were processed

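acRIP-seq libraries of 293T cells were compared as 6 groups taken from the labels (genotype WT or siTDP43, and input, IP or IgG). Per the study's methods, the authors trimmed reads with Trim Galore 0.6.7, aligned them to hg19 with STAR 2.7.10a and deposited counts of uniquely mapped reads per gene from featureCounts 2.0.2. The strand setting, the annotation release and the counting of read pairs are not given in the sources used here. The study's acetylated spike-in was left aside, and enrichment is therefore relative within each library. All columns of per-sample values were used (0 were left out).

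Counts were tested in R 4.3.3 with the quasi-likelihood F test of edgeR 4.0.16 (TMM scaling, filterByExpr with a minimum count of 10, Benjamini-Hochberg adjustment over the whole table), in fits of the 6 inputs, the 8 WT libraries, the 9 siTDP43 libraries and, for the changes between genotypes, all 17 libraries. A call was an adjusted p under 0.05, and between fractions also a fold above 2. All 33 members passed the filter in every fit. ERN1 did so through its input libraries alone, so nothing is read from its calls below input. Where a group was at 0, a fold is a bound computed against 3 counts in each library, and bounds cover counting error only. The scripts were tested on simulated counts in which 200 genes changed by 2 on the log2 scale, far fewer than were called in the data. At an adjusted p under 0.05 alone, 100% of the changed genes were called. False calls made up 5.21% in the inputs, 9.09% in WT IP over input, 7.41% in siTDP43 IP over input and 6.54% in the change over input. These shares are above what that threshold allows. Per-library values are given for TARDBP and NAT10 and, in each comparison, for up to 3 members with the largest rises and falls among those called with groups that do not overlap; a few others were added after their values were seen. The members, the other lists of genes and the tests were chosen with earlier results of these data known. Alternatives were DESeq2 1.42.0, its size factors, scaling by total count, no filter, a mean of at least 50 counts, the replicate number as a block, all libraries in 1 fit, each count divided by 2, a GC trend removed from each library (loess, span 0.3), limma 3.58.1 on log2(FPKM + 1), and each library left out in turn. Promoter windows came from RefSeq (GRCh38.p14) and exon features from hg19, and no coordinate was carried from one to the other.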

Additional observations from a re-analysis of the deposited data

Results flagged for a closer look

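For 6 members the IP was called above a control in one genotype and below the same control in the other, and the difference itself passed the interaction test over all 17 libraries (edgeR, adjusted p under 0.05). Over all genes tested 14.7% met the same conditions, so the number of members is not read as particular to them. Over input, XBP1, the transcription factor activated by IRE1, was below in WT and above in siTDP43, a log2 change of 3.31. TRIB3, the ATF4 target, changed the same way by 2.85, and EIF2AK3, which encodes PERK, by 2.10. The inputs of all 3 were lower in siTDP43, by 9.88-fold, 8.94-fold and 2.36-fold. Mean XBP1 IP was 166 CPM in both genotypes, and in siTDP43 its IgG was also called above input. TRIB3 IP fell from 63.3, 50.6 and 54.5 CPM in WT to 46.4, 44.8 and 43.2 CPM, while mean EIF2AK3 IP rose from 2.55 to 4.53 CPM. Over IgG, EIF2AK3 changed by at least 4.26, a bound because every siTDP43 IgG library was at 0. That bound was not recomputed with each count divided by 2. HERPUD1, of the degradation machinery, changed by 3.31 over IgG and the cochaperone DNAJC3 by 2.97. SYVN1, the HRD1 ligase, went the other way, above IgG in WT and below it in siTDP43, with a log2 change of -4.65. Several of these calls lay near a threshold. The WT side of XBP1 was just past 2-fold, and under it, between -0.998 and -0.89, in 10 of the alternatives. The WT side of EIF2AK3 over input was -0.992 without WT input replicate 1 and -0.70 with the GC trend removed, and its siTDP43 side was 0.97 without siTDP43 input replicate 3 and 0.96 without siTDP43 IP replicate 1. With the GC trend removed the siTDP43 side was 0.91 for TRIB3 over input and 0.61 for DNAJC3 over IgG (edgeR, adjusted p = 0.0811). The bound of EIF2AK3 and the siTDP43 calls over IgG rest on the shallowest libraries.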

How the results depend on the processing

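Of 3548 values recomputed for 182 results of single members, 3434 kept their direction and their side of the threshold, 82 lost the call, 4 gained it, 19 reversed, 4 of them in called members, and 9 bounds moved by more than 1 SD. Scaling by total count moved the median log2 value of all genes from -0.092 to -0.43 in siTDP43 IP over input, from -0.58 to -1.13 in siTDP43 IgG over input and from -0.19 to -0.48 in the change over input, and removing the GC trend moved it from 0.29 to -0.19 in WT IP over IgG and from 0.33 to -0.29 in siTDP43 IP over IgG. The siTDP43 IgG libraries were the shallowest and their members varied most between libraries (median coefficient of variation 13.8%); the part of depth was not tested. The cause was not tested for the changes that follow.

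The members higher in siTDP43 input numbered 3 in place of 5 with scaling by total count, a mean of at least 50 counts, limma or all 17 libraries in 1 fit, and with a fold above 2 also required, a threshold chosen after seeing the data, 1 was higher and 13 lower. In WT IP over IgG 2 members were higher without the low-count filter (SYVN1 and ERN1, the latter with IgG at 0), and 18 were lower with the GC trend removed. In siTDP43, 14 members were below input in IP with scaling by total count. With the GC trend removed, 6 were above and 11 below IgG in siTDP43 IP, and 12 were above and 9 below input in siTDP43 IgG. The siTDP43 members called ac4C(+) numbered 1 with a mean of at least 50 counts or all 17 libraries in 1 fit (TRIB3 in both) and 1 with the GC trend removed (EIF2AK3), while scaling by total count and limma each called TRIB3 and XBP1.

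Leaving out each library in turn gave 4 to 6 members higher and 22 to 22 lower in the input, 4 to 4 higher and 16 to 17 lower in WT IP over input, 1 to 2 and 9 to 10 over IgG, and 7 to 8 and 8 to 9 in WT IgG over input. In siTDP43 it gave 5 to 6 higher and 8 to 8 lower in IP over input, 8 to 10 and 3 to 4 over IgG, and 7 to 7 and 16 to 17 in IgG over input. The change over input had 16 to 18 higher and 8 to 9 lower members, and that over IgG 22 to 23 and 5 to 5. The members called ac4C(+) numbered 0 to 0 in WT and 1 to 2 in siTDP43, where TRIB3 remained without siTDP43 input replicate 3 or siTDP43 IP replicate 1. The log2 change of TARDBP stayed between -0.60 and -0.54.

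The sign of the input change reversed for PDIA3 with scaling by total count (-0.049), a mean of at least 50 counts (-0.0050), the GC trend removed (-0.17) and limma (-0.048), and for PDIA6 with scaling by total count (-0.037), the GC trend removed (-0.098) and limma (-0.036). It reversed with the GC trend removed for SDF2L1 (1.04), ERN1 (0.20) and ATF6 (-0.12), and of the members reversed in that setting PDIA3 (edgeR, adjusted p = 7.10e-06), PDIA6 (0.00472), SDF2L1 (1.57e-19), SESN2 (6.80e-11) and ATF6 (0.0385) passed the threshold on the other side. SDF2L1 also passed as lower with scaling by total count (-0.14, edgeR, adjusted p = 0.0165) and with limma (-0.14, adjusted p = 0.0481). For SESN2 the sign reversed with DESeq2 size factors (1.94e-05), the GC trend removed (0.48), without WT input replicate 1 (0.012) and without siTDP43 input replicate 3 (0.068), with a range of -0.095 to 0.068 over all libraries left out. With the GC trend removed, signs also reversed for CEBPB (-1.11) and CRELD2 (-0.20) in WT IP over IgG, CANX in siTDP43 IgG over input (0.024), and HSP90B1 (-0.52) and SDF2L1 (0.18) in the change over IgG.

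Samples with the same replicate number did not deviate together (residual correlations of -0.021 to 0.026), so the numbers are not taken as pairs. With the replicate block, 18 members in place of 16 had a higher change over input, and every other count of members stayed as it was.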
